A study of Caenorhabditis elegans with 2 samples.

Results

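The transcription factor AHA-1 was mapped in the roundworm Caenorhabditis elegans by ChIP-seq, the sequencing of DNA recovered with an antibody. The 349 regions described here were among the 3000 with the highest AHA-1 signal. They lie inside the introns of protein-coding genes, away from promoters and off the X chromosome. They were selected on the pooled signal value and the position of the summit (the base of highest signal), out of 30000 regions called on the pooled data of 2 replicates. Of the 3000 regions with the highest pooled signal value, 2424 lay on the 5 autosomes, and 349 of these had their summit inside a protein-coding gene, in no exon, and in no promoter window, which spans 1000 bp before and 200 bp after a protein-coding transcript start. Another 1358 autosomal regions had their summit in such a window and are called promoter regions below. A further 463 were intergenic and 254 exonic.

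The study had 1 group, with 2 biological replicates of whole L1 larvae, the stage that hatches from the egg, as a mixture of both sexes. The strain was OP124, which carries the mutation unc-119(ed3) on chromosome III and the inserted transgene wgIs124, from which an eGFP-tagged AHA-1 is made. Labels name no second strain, treatment or stage, so nothing below is a comparison of conditions. Transgenes of this type carry a working copy of unc-119 as a marker, so larvae of this strain hold extra copies of unc-119 and aha-1 sequence. Signal from the native gene and from the transgene cannot be told apart at those genes. In whole larvae, a strong signal in few cells and a weak signal in many cells cannot be told apart either.

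AHA-1 is the worm ortholog of mammalian ARNT, a transcription factor with a basic helix-loop-helix (bHLH) domain followed by PAS domains. It works as a pair with another bHLH-PAS protein, among them HIF-1, which drives the response to low oxygen, and AHR-1, the ortholog of the aryl hydrocarbon receptor. Such pairs are known to bind short DNA words built around ACGTG or GCGTG, and most worm regulatory sequence lies just upstream of genes, which is why regions far inside introns are described on their own.

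The 12 windows below each cover the summit and 50 bases on either side of it, on the plus strand of assembly WBcel235 (the same assembly as ce11). They come from the 20 strongest intronic regions and were picked for their words, to show where a core lies: 9 hold ACGTG or GCGTG on either strand, printed in capitals, and 3 of the strongest without either word stand beside them. Over the 20 strongest regions, 9 held a core, and the other regions without one are not printed. On the plus strand the reverse complements read CACGT and CACGC, and CACGTG holds ACGTG on both strands.
hlh-30, chrIV:4026085-4026185: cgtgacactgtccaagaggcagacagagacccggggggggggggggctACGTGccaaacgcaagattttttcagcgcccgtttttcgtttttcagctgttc
Y62E10A.13, chrIV:13395324-13395424: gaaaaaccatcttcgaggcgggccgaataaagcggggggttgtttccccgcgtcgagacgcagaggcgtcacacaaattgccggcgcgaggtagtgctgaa
pqn-41, chrIII:1921359-1921459: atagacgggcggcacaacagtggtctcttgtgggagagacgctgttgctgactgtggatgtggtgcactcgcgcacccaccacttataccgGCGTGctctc
W06H8.6, chrV:6224571-6224671: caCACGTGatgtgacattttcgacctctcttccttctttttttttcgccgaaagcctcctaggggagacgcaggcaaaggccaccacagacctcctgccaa
pqn-41, chrIII:1925350-1925450: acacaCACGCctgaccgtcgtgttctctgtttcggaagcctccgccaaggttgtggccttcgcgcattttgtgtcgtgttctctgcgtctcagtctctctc
mnk-1, chrII:10552088-10552188: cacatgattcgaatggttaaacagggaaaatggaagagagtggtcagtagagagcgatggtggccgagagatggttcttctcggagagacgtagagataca
zfp-1, chrIII:8795835-8795935: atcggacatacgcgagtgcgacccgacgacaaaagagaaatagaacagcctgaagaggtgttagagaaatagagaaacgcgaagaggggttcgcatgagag
Y43F8B.2, chrV:19529337-19529437: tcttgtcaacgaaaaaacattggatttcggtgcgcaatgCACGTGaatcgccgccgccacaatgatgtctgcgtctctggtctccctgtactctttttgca
gei-4, chrIII:349951-350051: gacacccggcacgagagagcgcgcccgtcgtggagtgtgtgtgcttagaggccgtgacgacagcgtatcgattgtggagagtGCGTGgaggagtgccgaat
Y48C3A.5, chrII:13291586-13291686: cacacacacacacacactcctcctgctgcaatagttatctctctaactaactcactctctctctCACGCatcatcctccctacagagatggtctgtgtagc
skn-1, chrIV:5657216-5657316: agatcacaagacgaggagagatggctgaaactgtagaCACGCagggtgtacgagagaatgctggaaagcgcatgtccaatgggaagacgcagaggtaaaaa
zfp-1, chrIII:8800161-8800261: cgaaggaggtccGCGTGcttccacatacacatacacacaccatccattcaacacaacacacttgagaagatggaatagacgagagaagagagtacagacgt

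In the hlh-30 window the word ACGTG lies on the summit itself. It lies 6 bp from the summit in the Y43F8B.2 window, and the nearest GCGTG lies 9 bp away in skn-1 and 14 bp away in Y48C3A.5. In the other 5 windows with capitals the distance is 32 to 43 bp. A match to a word is a description of the sequence and does not mark a bound base.

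The pooled signal value, the authors' own measure of enrichment per region, was 102 in the strongest intronic region and 7.68 in the weakest, with a median of 9.04. Since it chose the regions, it is given as a description. The authors' list of 530 peaks thresholded by IDR (irreproducible discovery rate, which asks whether replicates rank a peak alike) was made up of the first 530 rows of the pooled list, and 27 of the 349 intronic regions (7.74%) were among them. Over the 3000 regions 17.7% were in the thresholded list, over the 2424 autosomal ones 18.1%, and over the promoter regions 24.4%. The share of intronic regions among the autosomal ones was 8.86% in the first 100 rows, 7.32% in the first 300, 6.15% in the first 530, 9.92% in the first 1500 and 14.4% in the first 3000. Regions around the lower limit were alike: attf-3, cank-26 and atgp-1, just inside it, had pooled signals of 7.690, 7.685 and 7.684, and slc-36.1, H20E11.1 and gon-1, just outside it, had 7.683, 7.683 and 7.680.

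Among genes of transcription factors, the strongest intronic region lay in hlh-30, which encodes the bHLH factor orthologous to mammalian TFEB, a regulator of autophagy and lysosome genes. The region (chrIV:4026062-4026230) ranked 5 in the pooled list, with a signal of 102, and had 63.2 in replicate 1 and 37.4 in replicate 2, ranks 4 and 3 of those lists. It sat in an intron of 7833 bp, 928 bp downstream of the nearest annotated hlh-30 start. A second region in the same intron (chrIV:4024182-4024497), 2723 bp downstream of that start, had a pooled signal of 19.3, with 11.1 in replicate 1 and 7.86 in replicate 2. Both replicates thus placed the first region far above the second. The only other bHLH gene of the list that held a region was hlh-10 (chrV:9280811-9281126), with a pooled signal of 8.89 and 5.72 in replicate 1, and no overlapping region in replicate 2. W06H8.6, which RefSeq describes as a protein with a bHLH domain and which is not on the list, had a pooled signal of 48.4, with 36.8 in replicate 1 and 13.1 in replicate 2 (chrV:6224463-6224778).

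Of the 5 bHLH-PAS genes examined, aha-1 alone held a region (chrI:10194451-10194766). Its pooled signal was 10.02, rank 1532, with 6.06 in replicate 1 and 3.78 in replicate 2, and its summit was in the last intron of the gene, which is 485 bp long. It is a weak region in both replicates, in a gene present in extra copies in this strain, and the part of those copies in the signal was not tested. None of the 10 autosomal hypoxia-response genes with intron sequence outside the windows held a region. Those 10 genes hold only 0.0149 Mb of such sequence. Over all 14843 autosomal protein-coding genes with such sequence, 2.00% held 1 or more.

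Genes of further transcription factors were also among the hosts. In skn-1, the worm Nrf factor of the oxidative stress response, a region (chrIV:5657108-5657423) had a pooled signal of 27.5, with 14.2 in replicate 1 and 11.8 in replicate 2. In mef-2, a MADS-box factor known from muscle and synapses, a region (chrI:9097600-9097915) had 22.7 in the pooled list and 20.9 in replicate 1, and replicate 2 listed none there. The forkhead gene fkh-7 held 5 regions, of which the strongest (chrIV:5604440-5604755) had 20.5 in the pooled list and 21.4 in replicate 1 and again had no counterpart in replicate 2. These 2 were the only thresholded intronic regions not listed in both replicates. The other hosts on the list of further transcription factors, daf-16 (the FOXO factor of insulin signalling), let-607, klf-1, zip-5 and crh-1 (the CREB ortholog), held regions with pooled signals of 8.47 to 16.3. That list had regions in 8 of 73 genes, 15 regions in all and 64.3 per Mb of its intron sequence outside the windows, against 15.4 per Mb over all genes. Of these regions fkh-7 held 5 and daf-16 held 3. The daf-16 regions with pooled signals of 12.3 and 8.83 overlap each other. Both were matched to the same region of replicate 1, and replicate 2 listed neither. Other lists lay on both sides of that value. Further bHLH genes had 67.8 per Mb, nuclear hormone receptors 39.4 and genes of neuronal function 36.9. From 1 region each, bHLH-PAS genes had 127, intestine genes 55.4, germline genes 48.2, muscle genes 7.83 and homeobox genes 7.29. Chaperone genes had 40.4, signalling genes 35.5, neuropeptide genes 24.0 and hypodermis and cuticle genes 14.6. Hypoxia-response, ribosomal protein, translation factor and metabolism genes had 0. The hypoxia-response list holds 0.0149 Mb of such sequence and the bHLH-PAS list 0.00787 Mb, so 1 region more or less changes their values greatly.

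Of 243 nuclear hormone receptor genes, 10 (4.12%) held a region and none held a thresholded one. The strongest, in nhr-19, had a pooled signal of 13.9, followed by nhr-184 with 9.93 and nhr-85 with 9.85. The homeobox list had 1 host of 66 genes, nob-1, a posterior Hox gene, with 9.43. In signalling pathways, daf-14, a Smad-type protein of the dauer pathway, had 17.7, and daf-5, a Sno/Ski-type protein of the same pathway, 17.2. With lag-1, the DNA-binding protein of Notch signalling, at 9.60, this made 3 hosts of 34 genes. Those 34 genes hold 0.141 Mb of intron sequence outside the windows, and over all genes 2.00% held a region.

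Among genes of neuronal function, 6 of 30 held 8 regions in all. The strongest lay in unc-119, a gene needed for axon development (chrIII:10905164-10905479), with a pooled signal of 19.9. Replicate 1 gave it 11.9, rank 575, and replicate 2 gave it 19.4, rank 44, so it stood higher in replicate 2. Because unc-119 is the marker gene of the transgene, the share of this signal that comes from the native intron is not known. Next came 2 regions in unc-43, which encodes the calcium/calmodulin-dependent kinase II, with pooled signals of 13.1 and 10.9. The lists of other tissues had 1 or 2 hosts each: pgp-1, a P-glycoprotein of the intestine, at 14.5, mex-3, a germline RNA-binding protein, at 11.8, and unc-89, a giant muscle protein, at 8.89. On the hypodermis and cuticle list, rol-3 had 17.02 and dpy-21 had 7.74. Lists were filled by gene name, so a place on this list does not show that a gene acts in that tissue. The neuropeptide list had ins-29 at 9.38 and nlp-71 at 8.01, and the chaperone list dnj-20 at 9.67, cct-5 at 9.14 and dnj-9 at 8.03. No ribosomal protein gene (of 34), translation factor gene (of 31) or gene of metabolism and the respiratory chain (of 33) held an intronic region. Over all autosomal genes with intron sequence outside the windows, 2.00% held 1 region or more. The 30 neuronal genes hold 0.217 Mb of that sequence and the 34 ribosomal protein genes 0.00360 Mb. Translation factor genes hold 0.0170 Mb and genes of metabolism and the respiratory chain 0.0848 Mb. Counts of hosts are not comparable across lists without these amounts.

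A total of 297 genes held the 349 regions. Of these, 263 held 1, 22 held 2, 8 held 3 and 4 held 4 or more. The 4 were pqn-41, fkh-7, zfp-1 and Y111B2A.12.

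In pqn-41, which encodes a glutamine-rich protein known from the death of the linker cell, all 5 regions lay within 5177 bp of each other in an intron of 7770 bp, and 4 of them were thresholded. The first (chrIII:1921251-1921566) had a pooled signal of 49.95, with 25.6 in replicate 1 and 26.6 in replicate 2. A region farther along (chrIII:1925242-1925557) had 45.9, with 29.3 and 15.1. The region nearest the end of the intron (chrIII:1926428-1926743) had 33.9, with 9.19 and 23.2. Between them lay a region (chrIII:1923543-1923858) with 32.8, 22.8 and 10.8, and a weak one with 7.83, 3.40 and 3.41. The replicates thus did not order the 4 strong regions alike. No promoter region of pqn-41 was among the first 3000.

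The gene zfp-1, the ortholog of the mammalian chromatin protein AF10, held 4 regions beside a promoter region that ranked 37 in the pooled list with a signal of 49.8. That promoter region lay inside the gene, 10621 bp from the outermost start and upstream of an internal start at 11284 bp. It was in the same intron as the regions with 25.8 and 12.5 below. The strongest intronic region of zfp-1 (chrIII:8795727-8796042) had 41.1, with 24.4 in replicate 1 and 15.9 in replicate 2. Another (chrIII:8800053-8800368) had 25.8, with 27.7 and 8.45. The one with 12.5 overlaps it in the pooled list and was matched to the same region in each replicate, so the replicates give no separate value for it. The weakest had 8.14.

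The gene Y111B2A.12, which encodes WD repeats, had a strongest region (chrIII:12612545-12612860) with 35.0 in the pooled list, 16 in replicate 1 and 21.3 in replicate 2. Its 3 other regions in the same intron had 18.2, 12.1 and 8.54, and its best promoter region had 38.3. The 5 regions of fkh-7 were spread over 13274 bp, with pooled signals of 20.5, 18.2, 14.2, 14.03 and 8.45. Its promoter region, 22846 bp from the outermost start and upstream of an internal start at 23679 bp, had 9.76. In zfp-1, at an internal start, and in Y111B2A.12 a promoter region was thus stronger than every intronic one outside the windows. In fkh-7 the strongest region was intronic.

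**Figure D1:**
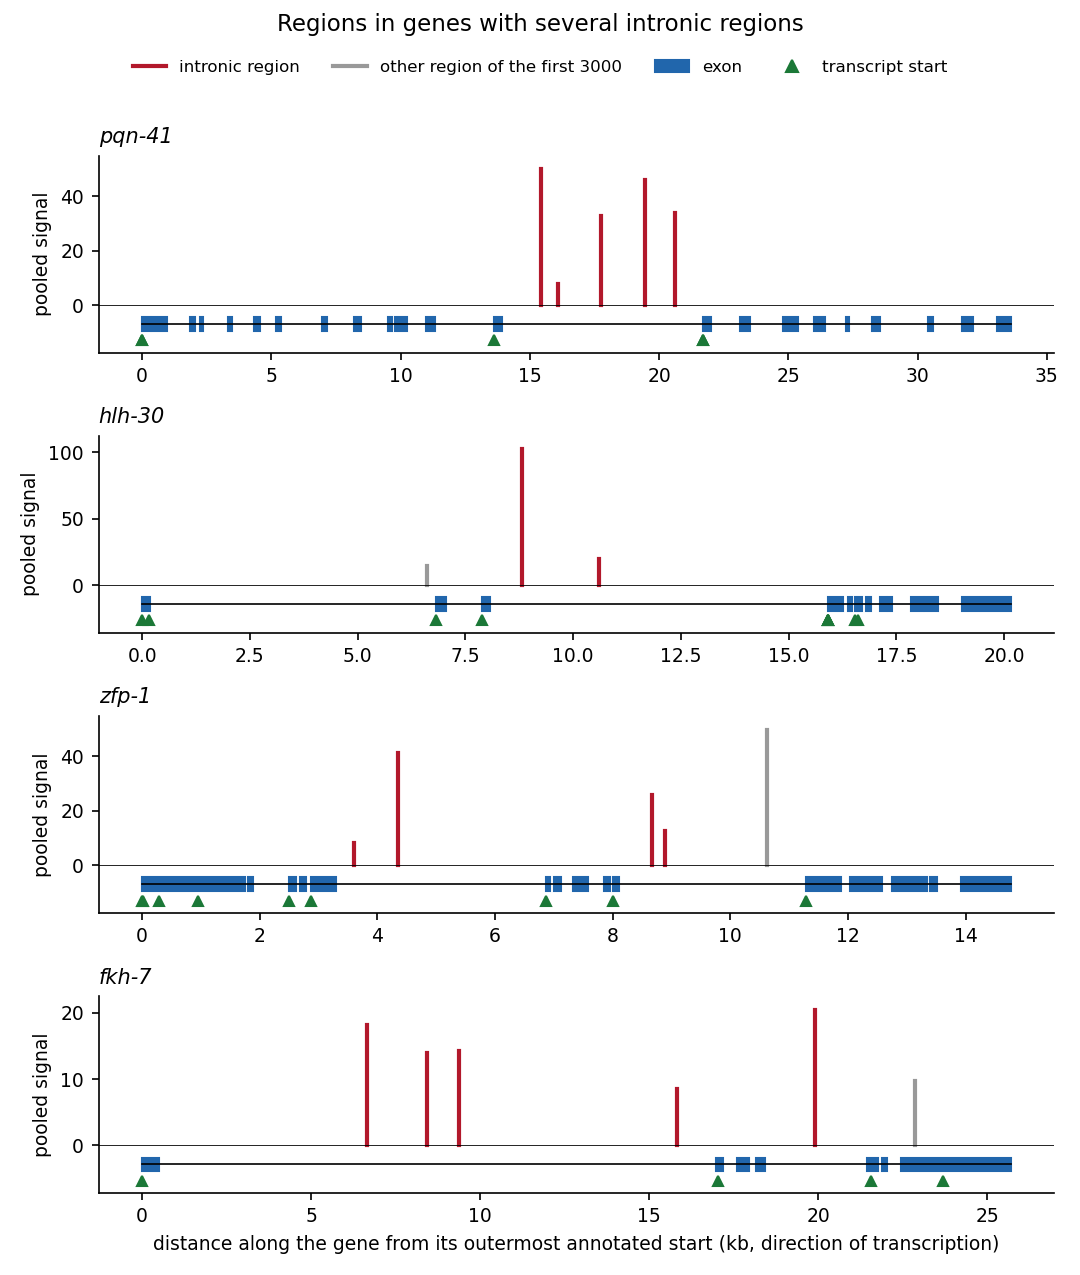
Positions of regions along 4 host genes, with distance from the outermost annotated start in kb on the horizontal axis and pooled signal on the vertical axis. Red lines are intronic regions, grey lines other regions of the first 3000, blue boxes exons and green triangles annotated transcript starts. The 5 lines of pqn-41 stand in a single intron of 7770 bp, and hlh-30 has a line at 102 and a line at 19.3. The tallest line of zfp-1, 49.8, stands upstream of a start inside the gene.

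The remaining thresholded regions lay in genes of varied function. Y62E10A.13, a phosphoserine phosphatase of serine synthesis, had a pooled signal of 50.6 (chrIV:13395216-13395531), with 33.3 in replicate 1 and 21.4 in replicate 2. In mnk-1, a kinase downstream of MAP kinases, the region (chrII:10551980-10552295) had 43.5, with 33.5 and 9.35. Y43F8B.2, which carries a GSKIP domain, had 36.2, with 28.2 and 8.36, and gei-4, a protein with a bZIP domain according to RefSeq, had 33.2, with 16.6 and 15.2. All 4 were above 8 in both replicates. The gene epg-9, whose product is the autophagy protein ATG101, had 33.7 in the pooled list and 34.7 in replicate 1, but 5.01 in replicate 2. Y48C3A.5 had its region (28, with 18.7 and 8.96) in an intron of 19925 bp, the longest that held a region.

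Lower in the thresholded list were T28B11.1, an F-box protein, with a pooled signal of 22.5 and replicate values of 16.2 and 3.53, and let-526, an ARID-domain subunit of the SWI/SNF chromatin remodelling complex, with 22.5, 10.9 and 7.57. The kinase genes kin-4 and pkg-2 had 20.7 and 18.7. Both replicates listed all of these. The spindle assembly gene rsa-2 had 23.9, with 20.6 in replicate 1 and 3.01 in replicate 2. With ranks of 200 and 8163, rsa-2 showed the largest rank difference among the 25 thresholded intronic regions listed in both replicates (mef-2 and fkh-7 had no rank in replicate 2), followed by T28B11.1 with ranks of 331 and 5245 and epg-9 with ranks of 35 and 1716. In all 3 the region ranked lower in replicate 2.

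Replicate 1 listed a region overlapping 313 of the 349 intronic regions (89.7%, against 91.6% of all 3000), and replicate 2 listed 230 (65.9%, against 71.6%). In neither list were 6 of them. The list of replicate 1 had 24611 regions and that of replicate 2 had 18195. Over the 200 intronic regions with a value in each replicate, Spearman's rho between the signals of the replicates was 0.14, while it was 0.45 over 934 promoter regions and 0.34 over 284 intergenic regions. These are descriptions over regions that share libraries, and the intronic set has few strong regions, so no p is given. The 27 thresholded regions came from the IDR list, which equals the first 530 rows by pooled signal. Their place on it does not show that each region agreed between replicates. Replicate 1 listed 27 of them and replicate 2 listed 25. In the first 3000 rows of both replicates were 54 of the 349 intronic regions. When the same rule was applied to each replicate's own list, 412 intronic regions were found in replicate 1, of which 191 overlapped one of the 349, and 435 in replicate 2, of which 110 did.

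**Figure D2:**
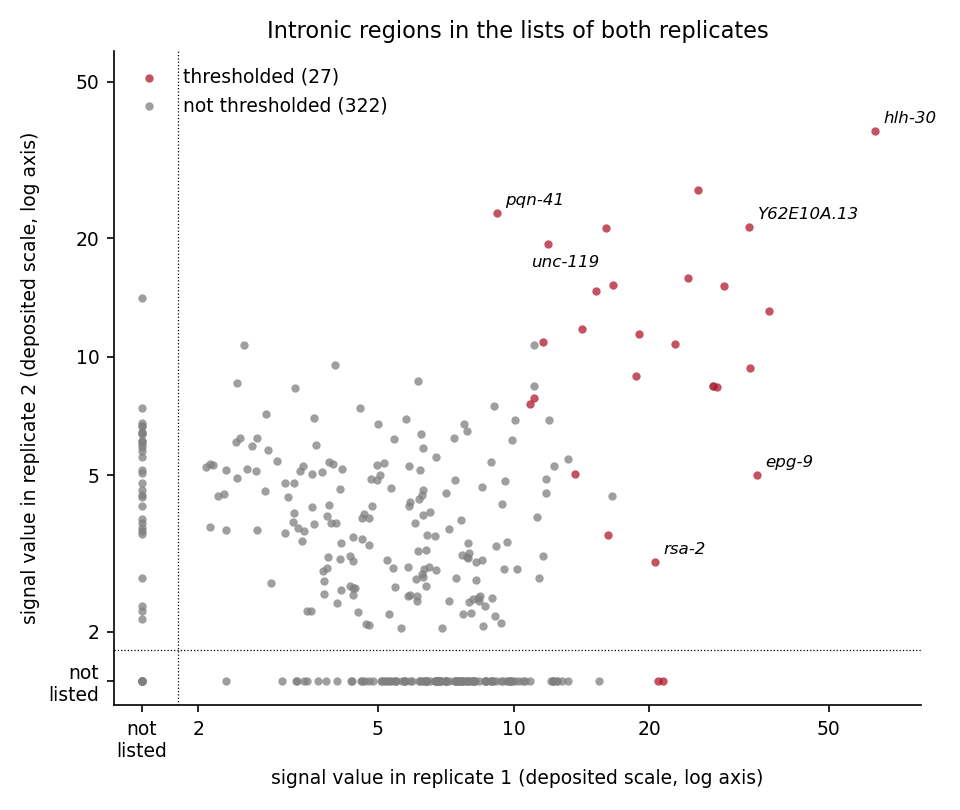
Signal value of each of the 349 intronic regions in replicate 1 (horizontal, log axis) and replicate 2 (vertical, log axis), with regions that a replicate did not list placed beyond the dotted lines. Red points are the 27 thresholded regions and grey points the other 322. Thresholded regions such as hlh-30 (63.2 and 37.4) lie toward the upper right, while the grey points form a cloud without a clear trend and a dense row of regions not listed in replicate 2.

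The introns that held regions were long. Their length had a median of 1609 bp and quartiles of 551 and 4309 bp, against a median of 950 bp for a base taken at random from the autosomal intron sequence outside the windows, with quartiles of 440 and 2250 bp. The median over all autosomal introns was 67.0 bp. Introns of over 2000 bp held 165 regions (47.3%), against 27.8% of that sequence, and 21 of the 27 thresholded regions. The host genes were long too, with a median of 7416 bp, against 2249 bp over all genes that could have held a region.

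**Figure D3:**
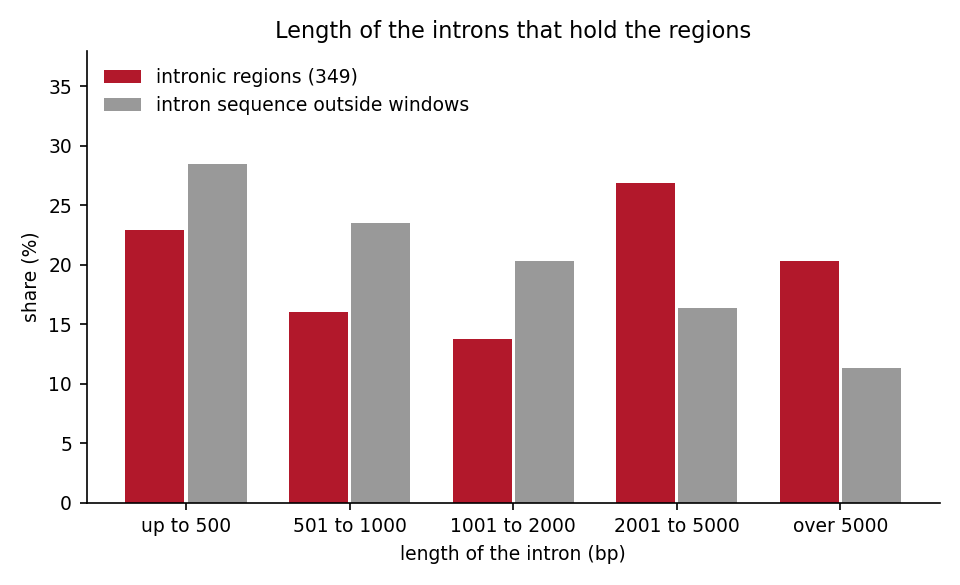
Share of the 349 intronic regions (red) and of all autosomal intron sequence outside promoter windows (grey) by length of the intron in bp. Introns of over 5000 bp held 20.3% of the regions and 11.3% of the sequence, and introns of up to 500 bp held 22.9% of the regions and 28.5% of the sequence.

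The first intron of the host held 94 regions (26.9%), against 19.6% of the intron sequence. Within 500 bp of the nearest protein-coding start lay 35 of the 349 regions, where 10.8% of the intron sequence lies. Fewer regions than sequence lay far from starts: 34.1% lay over 2000 bp from every such start, against 41.5% of the sequence, and 6.30% over 5000 bp away, against 9.13%. Introns made up 14.4% of the autosomal regions of the first 3000 and 26.9% of the autosomal sequence, while promoter windows made up 56.0% of the regions and 27.1% of the sequence. All 5 autosomes were represented, with 63 regions on chromosome I, 63 on II, 73 on III, 83 on IV and 67 on V. Chromosome III held 20.9% of the 349 regions, 20.3% of the autosomal regions of the first 3000 and 19.9% of the intron sequence. Of the 27 thresholded regions 11 were on III, and of these pqn-41 held 4, in a single intron, and zfp-1 held 2. The central 50% of the chromosomes held 52.7% of the regions, against 41.6% of the intron sequence.

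Many hosts had AHA-1 signal at their own promoters as well. Promoter windows here include those of starts inside a gene, as in zfp-1 and fkh-7. Of the 297 host genes, 71 (23.9%) also had a promoter region among the first 3000, against 9.41% of all 14843 genes that could have held an intronic region. A thresholded peak in the promoter window was found in 18 host genes (6.06%), against 2.54%. Host genes are longer than the others and have more chance to hold a region, and the part of gene length in this difference was not tested.

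Some regions lay beside genes of small RNAs that sit inside introns. Within 500 bp of the summit, 15 of the 349 regions (4.30%, exact Clopper-Pearson interval of counting error at the 95% level 2.43 to 6.99%) had a gene of a snoRNA, a small RNA that guides the modification of ribosomal RNA, against 0.307% of the intron sequence. Of these 15 summits, 12 lay upstream of the snoRNA gene's start, at a median of -48.0 bp over all 15, and 13 of the 15 snoRNA genes were on the strand of the host. The rule allowed no exon of any gene, so a summit inside a small RNA gene could not be counted. Positions relative to these genes are in part set by that choice. The strongest was in pxn-1, a peroxidasin (chrV:8500363-8500678), with a pooled signal of 32.7 and replicate values of 15.2 and 14.7, 58 bp upstream of the snoRNA gene ZK994.7. In Y43F8C.7 and rol-3, with pooled signals of 17.2 and 17.02, the summit was 38 and 69 bp upstream of a snoRNA gene.

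Genes of snRNAs, the RNAs of the spliceosome and of trans-splicing, lay near 6 regions (1.72%, interval 0.633 to 3.70%, against 0.121% of the sequence). One of them was in the dynein heavy chain gene dhc-4 (chrIII:10989485-10989800), with a pooled signal of 27.8, replicate values of 19 and 11.4, and a summit 36 bp upstream of the snRNA gene. A tRNA gene lay near 4 regions (1.15%, against 0.319%), and the rsa-2 summit was between 2 of them, 62 bp upstream of the start of one and 46 bp upstream of the start of the other. A miRNA gene lay near 3 regions (0.860%, against 0.153%) and a piRNA gene near 21 (6.02%, against 4.86%). Other non-coding RNA genes lay near 35 regions (interval 7.09 to 13.7%, against 4.68% of the sequence), of which 5 were thresholded, and a pseudogene near 1 (0.287%, against 0.844%). snRNA and tRNA genes have near-identical copies, how reads from such copies were placed is not given in the sources used here, and their regions are uncertain to that extent.

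Sequence was the measure that the choice of regions had not used, and 6 words were sought on both strands within 50 bp of each summit. The words themselves were chosen with earlier results of these data known, so the p-values below are not those of words picked independently. ACGTG is called the A-type core here and GCGTG the G-type core. The palindromic E-box, CACGTG, contains the A-type core. The word of GATA factors was GATAA, and a repeat of G and A was sought as GAGAGA. For factors of the AP-1 type, the word was TGANTCA, in which N is any base. For each region a window of the same length, 400 bp to a randomly drawn side, served as the flank, and the exact McNemar test compared the pair. The flank was set by distance alone and was not held to introns. Only 132 of the 349 regions had no exon within 450 bp of the summit, so in the others a flank can hold exon sequence. Fisher's exact test compared the intronic with the promoter regions. Both were two-sided, and p-values were adjusted over the 6 words (Benjamini-Hochberg) for each test. The regions come from 1 pooled list and some share a gene, so these tests describe the regions and not the spread between larvae.

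GAGAGA was the word that set the intronic summits apart from their flanks. It was found in 58 of 349 summit windows (16.6%) and in 5.16% of the flanks, with an adjusted p of 9.92e-06 by the exact McNemar test, against 7.78% of all 30000 pooled summits and 3.93% of windows of intron sequence. Promoter regions had it in 18.4% of their windows (adjusted p = 0.724 by Fisher's exact test) and intergenic regions in 28.3%. The difference from the flank did not pass the test without replicate 1: in the 435 regions from the list of replicate 2 alone, GAGAGA was in 9.66% of summit windows and 7.82% of flanks, with an adjusted p of 0.700 by the exact McNemar test. Among the 27 thresholded regions 13 held it, among them mnk-1, epg-9, unc-119 and 3 regions of pqn-41.

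The cores of bHLH-PAS pairs were present in fewer regions. ACGTG was found in 47 summit windows (13.5%) and in 8.60% of the flanks, and GCGTG in 43 (12.3%) and in 7.74% of the flanks, each with an adjusted p of 0.107 by the exact McNemar test. Over all pooled summits the shares were 9.23% and 6.83%, and over windows of intron sequence 6.25% and 4.80%. With the opposite flank of each region, GCGTG was in 4.87% of the flank windows and the adjusted p was 0.00259, so the call for this word turned on which flank was drawn. One or the other core was in 82 regions (23.5%), against 32.8% of the promoter regions.

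GCGTG was less frequent in intronic than in promoter regions, at 12.3% against 20.3% (Fisher's exact test, odds ratio 0.551, adjusted p = 0.00305). By the same exact test ACGTG, at 13.5% against 15.2% (adjusted p = 0.724), and CACGTG, at 4.58% against 4.27% (adjusted p = 0.923; 1.93% of all pooled summits), did not pass. In the exact test the GCGTG difference was no longer past the threshold in the 27 thresholded regions (25.9% against 29.0%, adjusted p = 0.994), among the first 1500 rows (18.9% against 25.1%, adjusted p = 0.316), within 25 bp of the summit (7.16% against 11.1%, adjusted p = 0.179) or in the 132 regions with no exon within 450 bp (12.1% against 20.3%, adjusted p = 0.0650). Intronic regions had a median pooled signal of 9.04, against 11.4 in promoter regions, and a mean GC content of 38.8% at the summit against 43%, and the part of either in this difference was not tested.

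GATAA was in 15.2% of the intronic summit windows and 20.1% of their flanks (adjusted p = 0.145 by the exact McNemar test), in 18.3% of the promoter regions (adjusted p = 0.623 by Fisher's exact test) and in 21% of all pooled summits. TGANTCA was in 2.01% and 1.43% (adjusted p = 0.774 by the exact McNemar test), in 2.21% of the promoter regions (adjusted p = 1.00 by Fisher's exact test) and in 3.05% of all pooled summits. Neither test separated these words from the flanks or from promoters. GC content averaged 38.8% at the intronic summits and 36.3% in the flanks, and the soft-masked (repeat) share was 36.1% and 35.6%.

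**Figure D4:**
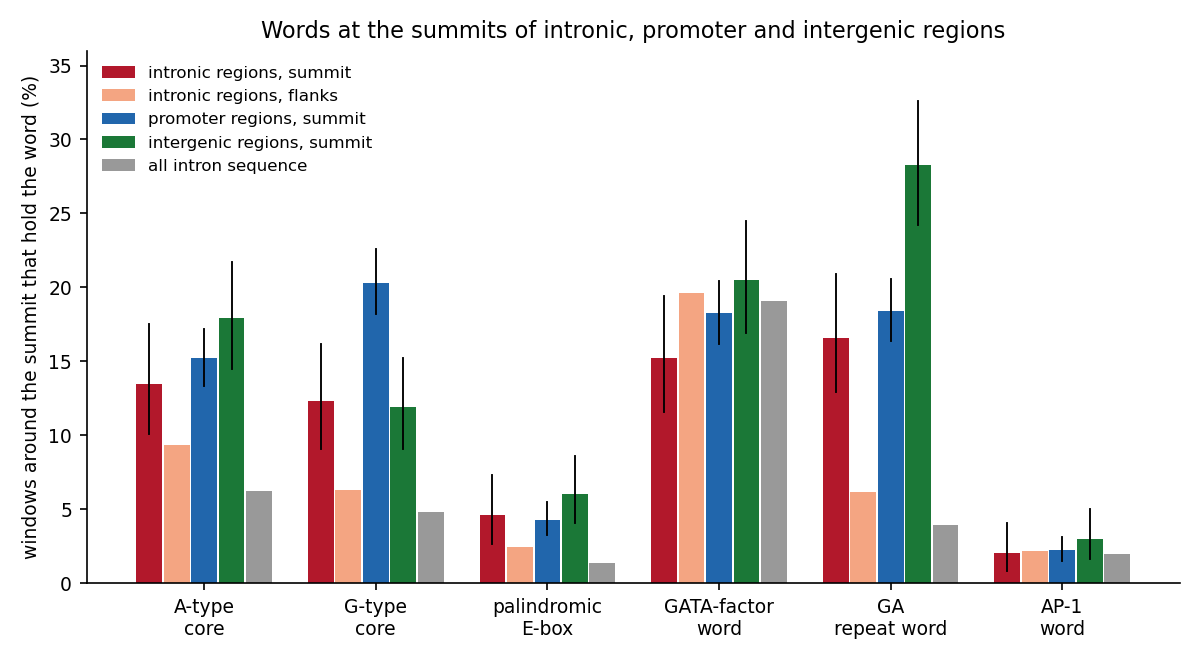
Share of windows (50 bp on either side of a centre) that hold each of 6 words, for the summits of 349 intronic regions (red), their 2 flanks (light orange), the summits of 1358 promoter regions (blue) and 463 intergenic regions (green), and windows across all autosomal intron sequence (grey). Black lines are exact Clopper-Pearson intervals at the 95% level. The GA repeat word stands at 16.6% in intronic summits and the G-type core at 12.3%, against 20.3% in promoter summits.

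Words also differed by strength within the intronic regions. With the regions split by pooled signal into the 87 strongest (102 to 11.7), the next 87, the next 87 and the 88 weakest (8.17 to 7.68), ACGTG or GCGTG was found in 32, 14, 21 and 15 regions, GAGAGA in 34.5%, 13.8%, 11.5% and 6.82%, and GATAA in 4.60%, 18.4%, 16.1% and 21.6%. The strongest group was the high one for the cores and for the GA repeat and the low one for GATAA. Of the 27 thresholded regions, 11 held a core. Strength chose the regions, and this gradient is a description without a test.

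**Figure D5:**
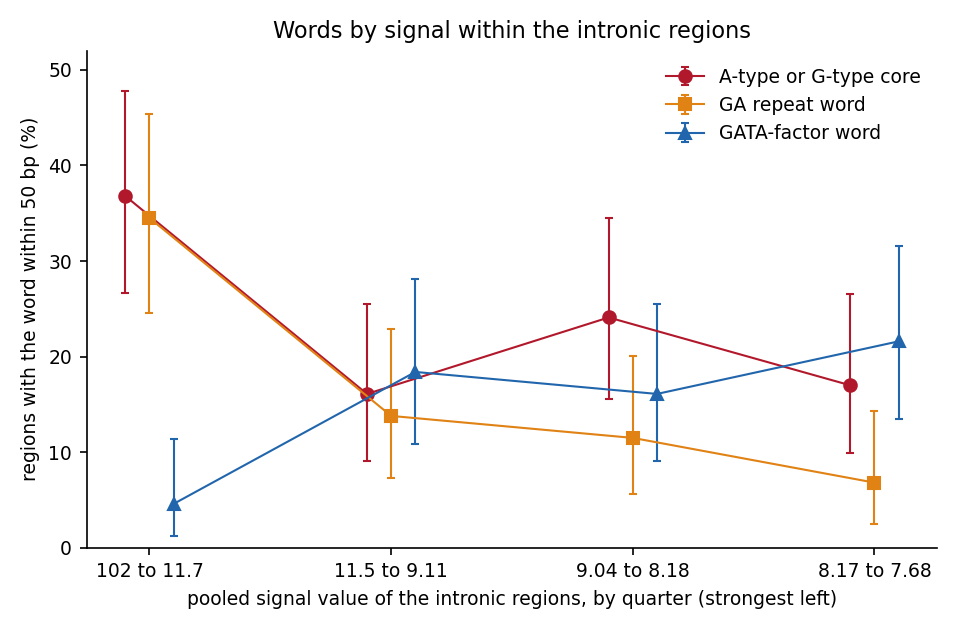
Share of intronic regions with a word within 50 bp of the summit, for 4 groups by pooled signal with the strongest on the left; bars are exact Clopper-Pearson intervals at the 95% level. The strongest group has the cores at 36.8% and the GA repeat word at 34.5%, and the GATA-factor word at 4.60%.

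Among all 2080 words of 6 bp (a word and its reverse complement counted once), those with the largest excess at the summit were AAGAGA (18.1% against a mean of 7.16% over both flanks), GAGAGA (16.6% against 6.16%) and AGAGAG (14.6% against 5.30%), and those with the largest deficit were AAATTT (22.6% against 28.7%) and ATTTTA (18.1% against 23.9%). Further down the first 15 words were ACGCAG (8.31% against 1.43%) and AGACGC (8.60% against 2.72%), which overlap. The joined word AGACGCAG, chosen after these values were seen and therefore not tested, was in 20 of the 349 regions (5.73%), in 9 of the 27 thresholded ones, in 3 of 698 flank windows (0.430%) and in 0.672% of windows of intron sequence. It was in 7.88% of promoter regions, 10.6% of intergenic regions and 1.51% of all pooled summits. Of the windows printed above, those of Y62E10A.13, W06H8.6, the pqn-41 region with a signal of 45.9, Y43F8B.2 and skn-1 hold it, and the first of these has neither core.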

How the data were processed

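AHA-1 ChIP-seq was done on 2 biological replicates of OP124 L1 larvae, with a DNA size range of 150 to 350 bp per the labels. The authors deposited narrowPeak lists on ce11 for each replicate, for the pooled replicates and, after IDR, a thresholded list; their signal column (column 7) is the signal of a region relative to a control, per the text deposited with the samples. The sources used here name neither the caller nor the scale of this value nor the read depth. Control reads and the ce10 lists were not analysed here. The numbers of regions, not reads, limit precision, and intervals cover counting error only.

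Summits were placed on Ensembl release 115 gene models and the RefSeq WBcel235 genome, whose chromosome lengths hold all coordinates. "In no exon" was read as no exon of any of the 46890 annotated genes. A replicate region was matched by an overlap of at least 1 bp, the strongest being used. Words were sought within 50 bp of the summit and of a point 400 bp away, on a side drawn with a fixed seed. Exact McNemar, Fisher and Clopper-Pearson calculations used Python 3.11.15, numpy 2.4.6 and scipy 1.17.1; figures used matplotlib 3.10.9. An adjusted p under 0.05 was the threshold. The word tests were tested on simulated data.

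The regions, the words and the gene lists were chosen with earlier results of these data known. Regions were named by rule: the 20 strongest, all thresholded ones, those in bHLH-PAS, hypoxia and bHLH genes, up to 3 for each other list, genes with 4 or more regions, those nearest the signal limit, and the 3 of largest rank difference between replicates. The further transcription factor hosts were named after their values were seen. Alternatives were the number of rows, the word window, the promoter window, the starts used, each replicate alone, the opposite flank, regions far from exons, protein-coding exons only and 1 region per gene.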

Additional observations from a re-analysis of the deposited data

How the results depend on the processing

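No paired analysis was possible because there is 1 group. The count of 349 regions became 122 with 1500 rows, 725 with 5000 rows and 227 with a window of 2000 bp upstream to 500 bp downstream. It was 412 and 435 without replicate 2 and without replicate 1, and regions listed in a replicate fell to 79.9% and 54.2% when its summit had to lie within 100 bp. Differences in percentage points follow, and the cause of each change was not tested. Summit minus flank: GAGAGA was 10.4 without replicate 2 and 1.84 without replicate 1, and kept its side of the threshold under the other alternatives. GCGTG passed the threshold within 100 bp (8.31), with outermost starts only (6.88), without replicate 2 (5.83, against 1.15 without replicate 1), with protein-coding exons only (6.79, added after seeing the data) and with the opposite flank (7.45). ACGTG passed with outermost starts (5.16) and far from exons (10.6), and CACGTG within 100 bp (4.87). GATAA was 0.287 within 25 bp and -9.17, past the threshold, within 100 bp. TGANTCA turned negative with 1500 rows (-0.820), within 100 bp (-0.287), with the opposite flank (-0.860), and without a replicate (-1.70 and -0.920). Intronic minus promoter: GCGTG lost the threshold among thresholded peaks (-3.08), with 1500 rows (-6.24), within 25 bp (-3.96) and far from exons (-8.20). ACGTG turned positive among thresholded peaks (1.60), with 1500 rows (0.493) and far from exons (3.01). CACGTG turned negative without replicate 1 (-0.173, against 0.566 without replicate 2) and with 1 region per gene (-0.231, added after seeing the data). GATAA passed the threshold with the wide window (-7.29) and was 0.765 with outermost starts. GAGAGA turned positive among thresholded peaks (25.5), with 1500 rows (5.93), within 100 bp (0.189), with outermost starts (1.66), far from exons (9.62) and with protein-coding exons only (0.128). TGANTCA turned positive with 1500 rows (0.0244), within 25 bp (0.475), without replicate 2 (0.429, against -1.18 without replicate 1) and far from exons (0.0636). With 27 thresholded regions only large differences could be detected.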
